A study of Mus musculus with 4 samples.

Results

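The aminoacyl-tRNA synthetases described here are 36 protein-coding genes, of 54532 genes in the tables, whose symbol is a capital letter (or Ep) followed by ars and, optionally, 1, 2, a or b. They were split by compartment into 20 cytosolic genes and 16 mitochondrial genes, whose symbols end in 2. RNA was sequenced from RAW 264.7 cells, a mouse macrophage cell line. The cells were Hnrnpul1-/- (knockout) cells exposed for 10 h to 100 ng/ml of LPS, the lipopolysaccharide of bacterial outer membranes that TLR4 detects, wild-type cells given the same LPS, untreated knockout cells and untreated wild-type cells. Each of the 4 groups held 1 library, so no value below has a replicate. How the knockout was made, and whether it is 1 clone, was not stated in the labels.

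An aminoacyl-tRNA synthetase joins an amino acid to its matching tRNA, the step that fixes which amino acid a codon calls for. Cytosolic translation and translation inside mitochondria use separate nuclear-encoded enzyme sets for most amino acids, while Gars (glycine) and Kars (lysine) serve both compartments, Eprs carries the glutamate and the proline activity in 1 protein, and Farsa and Farsb are the subunits of the cytosolic phenylalanine enzyme. Many cytosolic synthetase genes are known targets of ATF4, the transcription factor that is translated when eIF2 alpha is phosphorylated during amino acid shortage or other stress, and Wars (tryptophan) is known as an interferon-inducible gene in human cells.

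ATF4 with a C/EBP partner binds the CARE element, so the promoters that hold its core are shown first. Sequences run from 250 bases before to 50 bases after the gene's start, 5′ to 3′ on the strand of the gene, from RefSeq (GRCm38.p6), which held a promoter for 27 of the 36 genes (13 cytosolic and 14 mitochondrial). Capitals mark the core TGATGNAA, searched on both strands. The promoter of Sars, which was over 2-fold higher with LPS in both genotypes, had no match and is shown beside them. The positions are chr8:111033592-111033891 (plus strand) for Aars, chr6:55037751-55038050 (plus) for Gars, chr13:49681880-49682179 (plus) for Iars, chr15:11399609-11399908 (minus) for Tars, chr4:129189653-129189952 (plus) for Yars and chr3:108445210-108445509 (minus) for Sars.
Aars: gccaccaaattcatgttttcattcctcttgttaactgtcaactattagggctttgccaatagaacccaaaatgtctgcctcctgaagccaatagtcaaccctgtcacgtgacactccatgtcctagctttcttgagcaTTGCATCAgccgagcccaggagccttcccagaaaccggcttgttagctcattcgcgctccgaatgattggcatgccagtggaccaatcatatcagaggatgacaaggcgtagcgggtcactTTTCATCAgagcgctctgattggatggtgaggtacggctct
Gars: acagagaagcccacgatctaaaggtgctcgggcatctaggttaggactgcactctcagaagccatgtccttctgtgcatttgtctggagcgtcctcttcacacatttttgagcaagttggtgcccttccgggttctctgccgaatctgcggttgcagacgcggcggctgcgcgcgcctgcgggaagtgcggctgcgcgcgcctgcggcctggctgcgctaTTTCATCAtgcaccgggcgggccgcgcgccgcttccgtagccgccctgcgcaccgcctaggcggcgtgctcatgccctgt
Iars: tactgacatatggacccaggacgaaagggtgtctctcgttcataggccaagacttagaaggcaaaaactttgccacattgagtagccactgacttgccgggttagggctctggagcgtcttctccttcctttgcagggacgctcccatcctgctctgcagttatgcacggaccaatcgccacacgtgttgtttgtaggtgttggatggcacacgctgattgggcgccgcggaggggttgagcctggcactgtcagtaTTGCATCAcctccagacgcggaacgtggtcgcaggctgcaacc
Tars: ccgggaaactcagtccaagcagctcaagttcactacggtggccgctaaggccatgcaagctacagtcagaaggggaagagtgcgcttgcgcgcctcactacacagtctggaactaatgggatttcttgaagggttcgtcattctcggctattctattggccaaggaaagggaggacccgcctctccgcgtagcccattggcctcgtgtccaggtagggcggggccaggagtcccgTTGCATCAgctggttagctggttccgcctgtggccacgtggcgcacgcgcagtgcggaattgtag
Yars: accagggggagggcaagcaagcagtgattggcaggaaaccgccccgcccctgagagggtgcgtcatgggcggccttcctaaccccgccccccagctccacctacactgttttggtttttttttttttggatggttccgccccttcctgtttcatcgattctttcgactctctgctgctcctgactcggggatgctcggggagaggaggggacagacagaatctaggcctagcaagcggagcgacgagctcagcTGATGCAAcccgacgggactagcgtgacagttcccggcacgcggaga
Sars: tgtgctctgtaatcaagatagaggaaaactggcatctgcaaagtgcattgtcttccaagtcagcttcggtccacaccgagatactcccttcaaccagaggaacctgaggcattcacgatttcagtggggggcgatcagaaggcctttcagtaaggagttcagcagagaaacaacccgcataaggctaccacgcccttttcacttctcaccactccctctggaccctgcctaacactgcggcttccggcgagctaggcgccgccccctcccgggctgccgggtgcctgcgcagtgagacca

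The core was in 5 of the 13 cytosolic promoters (Aars, Gars, Iars, Tars and Yars) and in 0 of the 14 mitochondrial ones, against 3.97% of all 32851 promoters in the table. Aars held it at 2 places, as TTGCATCA beginning 112 bases before the start and as TTTCATCA beginning 10 bases after it. In Gars it began 30 bases and in Tars 15 bases before the start, and in Iars 8 bases and in Yars 4 bases after it. For comparison, the interferon-stimulated response element core (GAAA, any 2 bases, GAAA) was in Qars alone among the 27 (3.44% of all promoters), the STAT element TTCNNNGAA in Aars, Kars and Nars2 (8.3%), the E-box CACGTG in Aars, Farsb, Iars, Tars and Ears2 (7.15%), and the cyclic AMP element TGACGTCA in none (1.79%). These motifs were likewise searched on both strands and counted independently, so matches of different motifs may overlap. A match is a description of letters and not of binding, and promoters of Cars, Hars, Hars2, Lars, Nars, Pars2, Rars, Vars and Wars were not analysed here.

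Library totals ran from 17045432 to 17909549 read counts, and levels are given as CPM, read counts scaled to library size with TMM factors. Hnrnpul1, the targeted gene, whose product binds RNA and is related to hnRNP U, stood at 21.7 and 23.1 CPM in LPS-treated and untreated knockout cells, against 203 and 268 CPM in LPS-treated and untreated wild-type cells, in the direction of the labels. All 8 macrophage markers passed the filter of a mean of 1 CPM, and their summed level was 3374 and 5804 CPM in LPS-treated knockout and wild-type cells, against 2743 and 3273 CPM in untreated knockout and wild-type cells. Lyz2 was the largest part of the sum in every library, at 1245 and 3334 CPM in LPS-treated knockout and wild-type cells. Under LPS, Adgre1, Itgam and Ptprc were higher in knockout than in wild type, and Csf1r, Cd68, Lyz2, Spi1 and Fcgr1 were lower. Of the T cell, B cell, epithelial and fibroblast markers, 0 passed the filter. All 36 synthetase genes passed, on 91 reads or more each. In bulk RNA, a change in the number of cells that express a gene and in RNA per cell cannot be told apart.

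Per length, the cytosolic enzymes were the more abundant set in every library. Their median level was 71.7 and 67.9 CPM per kb of gene length in LPS-treated knockout and wild-type cells, against 49.3 and 47.2 CPM per kb in untreated knockout and wild-type cells. The mitochondrial medians were 4.03 and 4.39 CPM per kb in LPS-treated knockout and wild-type cells, against 6.01 and 6.68 CPM per kb in untreated knockout and wild-type cells. The cytosolic median was thus 17.8 and 15.5 times the mitochondrial median in LPS-treated knockout and wild-type cells, against 8.20 and 7.07 times in untreated knockout and wild-type cells. Nars (asparagine) had the highest level per kb and Gars the next highest in all 4 libraries. Yars2 (tyrosine) was the highest of the mitochondrial genes, and in the untreated libraries it stood above the cytosolic Qars (glutamine) and Cars (cysteine) per kb. Iars2 was also above Cars in both untreated libraries, and Tars2 in untreated wild type alone. In the LPS-treated libraries no mitochondrial gene stood above Qars, and Yars2 (19.9 and 19.5 CPM per kb in LPS-treated knockout and wild-type cells) stood below Cars (31.4 and 28.2 CPM per kb). The length is the exonic length in the deposited tables, which counts long untranslated ends, so the order of genes depends on it while the LPS ratios do not.

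**Figure D1:**
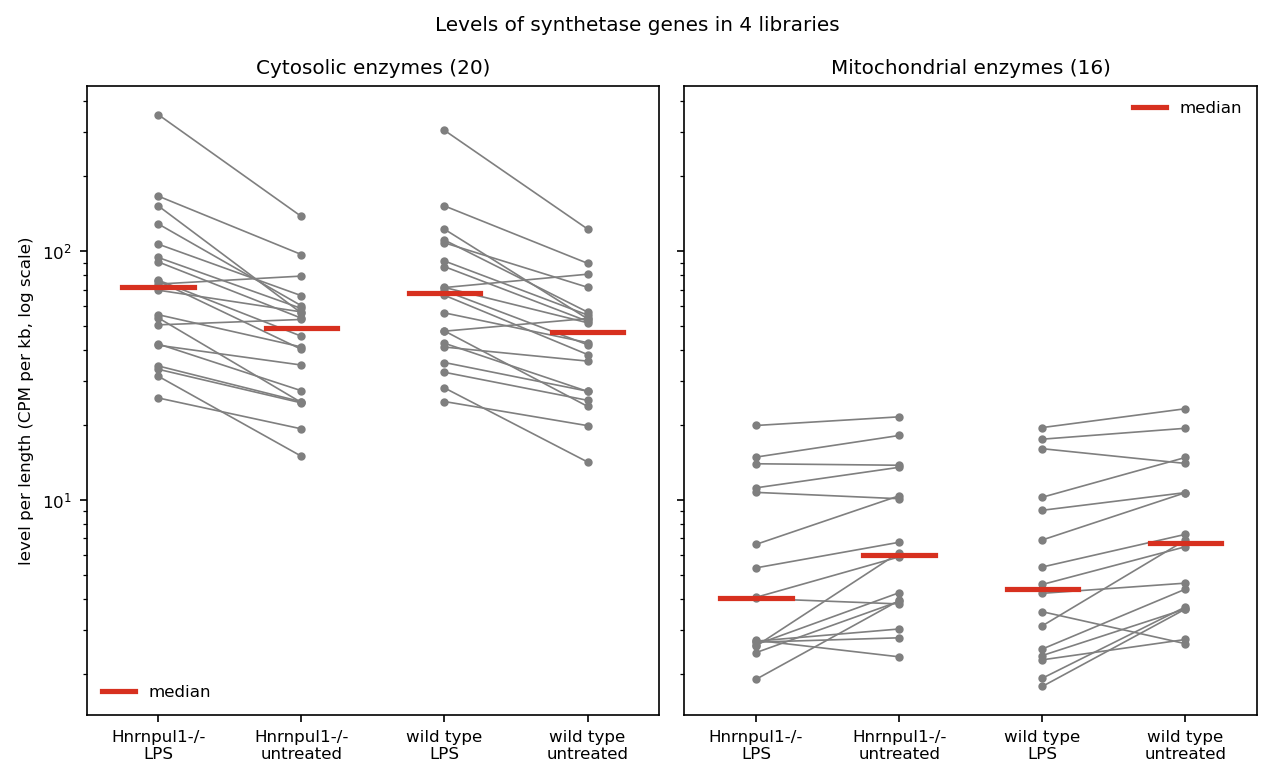
Level of each synthetase gene per kilobase (TMM-scaled CPM per kb, log axis) in the 4 libraries, LPS-treated before untreated within each genotype, with cytosolic genes on the left and mitochondrial genes on the right; each line joins 1 gene in the libraries of 1 genotype, red bars mark the medians, and there are no replicates. The cytosolic lines lie higher in the LPS-treated than in the untreated libraries for most genes, and the mitochondrial lines lie lower for most.

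Most cytosolic genes were higher with LPS, and most mitochondrial genes were lower. By edgeR's quasi-likelihood test of an additive model (genotype and LPS, 4 libraries, Benjamini-Hochberg over 11640 genes), 18 of 20 cytosolic genes rose and 0 fell, and 9 of 16 mitochondrial genes fell and 0 rose, at an adjusted p under 0.05. Over all genes tested, 30.2% rose and 30.1% fell in the same fit. The model has 1 residual degree of freedom and takes the LPS effect to be the same in both genotypes. The median log2 ratio of LPS-treated over untreated cells was 0.69 in knockout and 0.68 in wild type for the cytosolic genes, and −0.28 in knockout and −0.47 in wild type for the mitochondrial genes, beside −0.02 and −0.004 over all genes tested. Summed over the 20 cytosolic genes, the level was 7509 and 6906 CPM in LPS-treated knockout and wild-type cells, against 4479 and 4372 CPM in untreated knockout and wild-type cells. The mitochondrial sum was 629 and 637 CPM in LPS-treated knockout and wild-type cells, against 760 and 808 CPM in untreated knockout and wild-type cells.

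A gene was also called from each pair of libraries when it differed by 2-fold or more and its exact 95% counting interval, which covers counting error only, excluded no change. By this rule 5 cytosolic genes were higher with LPS in knockout (Aars, Cars, Nars, Rars and Sars; background 11.6% of genes) and 3 in wild type (Aars, Nars and Sars; background 11.2%). Mars2 and Vars2 were the 2 of 16 mitochondrial genes called lower in both genotypes. This share was near the background of 12.0% in knockout and 10.1% in wild type. In both genotypes together, 3 cytosolic genes were higher (9.66% of all genes) and 2 mitochondrial genes lower (8.55%). At 1.5-fold, 12 of 20 cytosolic genes were higher in knockout (19.3% of all genes) and 12 in wild type (18.9%), and these were the same 12 (15.9% in both). Of the 16 mitochondrial genes 5 were lower in knockout (21.0%) and 6 in wild type (19.2%), where Ears2 was added, so that 5 were lower in both (16.1%). No cytosolic gene was lower and no mitochondrial gene was higher at either size.

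**Figure D2:**
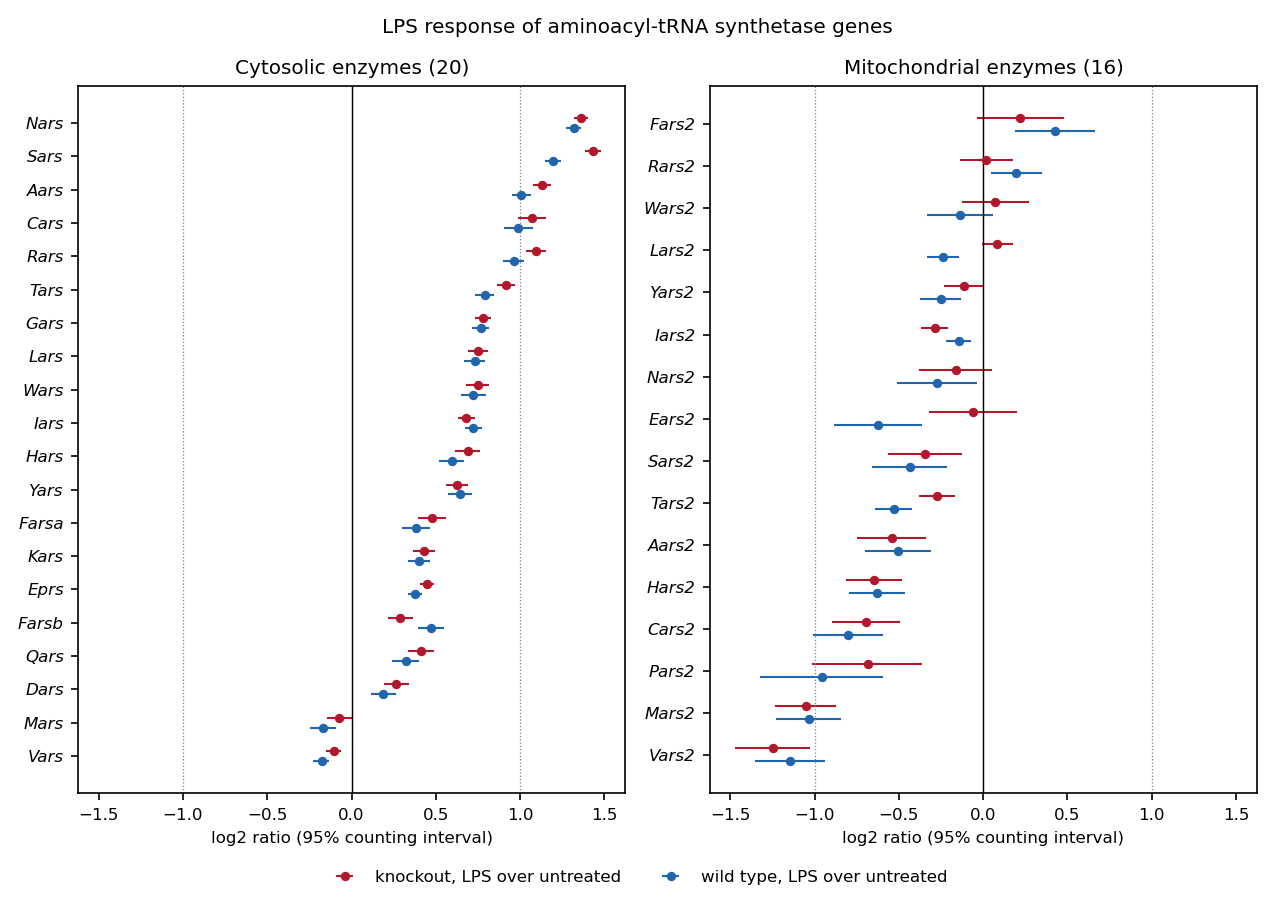
Log2 ratio of LPS-treated over untreated cells for the 20 cytosolic and 16 mitochondrial synthetase genes, in knockout and in wild type; bars are exact 95% counting intervals of 1 library over 1 library and dotted lines mark 2-fold. Nars, Sars and Aars lie at the high end of the cytosolic genes and Vars2 and Mars2 at the low end of the mitochondrial genes in both genotypes.

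Nars (ENSMUSG00000024587, chromosome 18 from 64499665 to 64516557, GRCm38, minus strand), which charges asparagine, had 932 and 805 CPM in LPS-treated knockout and wild-type cells, against 363 and 323 CPM in untreated knockout and wild-type cells. Both LPS-treated libraries lay above both untreated ones, and the log2 ratio was 1.36 in knockout (1.32 to 1.40) and 1.32 in wild type (1.27 to 1.36), with an edgeR adjusted p of 9.92e-07. Sars (ENSMUSG00000068739, chromosome 3 from 108424865 to 108445209, minus strand), which charges serine and also the selenocysteine tRNA, had 782 and 630 CPM in LPS-treated knockout and wild-type cells, against 290 and 275 CPM in untreated knockout and wild-type cells. Its log2 ratio was 1.43 in knockout (1.39 to 1.48) and 1.20 in wild type (1.15 to 1.25), the highest of the 36 in knockout, with an edgeR adjusted p of 2.95e-06.

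Aars (ENSMUSG00000031960, chromosome 8 from 111033144 to 111057664, plus strand), which charges alanine, had 501 and 443 CPM in LPS-treated knockout and wild-type cells, against 229 and 220 CPM in untreated knockout and wild-type cells. Its log2 ratio was 1.13 in knockout (1.08 to 1.19) and 1.01 in wild type (0.95 to 1.06). Cars had 207 and 186 CPM in LPS-treated knockout and wild-type cells, against 98.6 and 93.4 CPM in untreated knockout and wild-type cells, a log2 ratio of 1.07 in knockout and 0.99 in wild type. Rars (arginine) had 416 and 358 CPM in LPS-treated knockout and wild-type cells, against 195 and 184 CPM in untreated knockout and wild-type cells, a log2 ratio of 1.09 in knockout and 0.96 in wild type. For these 3 genes too, both LPS-treated libraries lay above both untreated ones. Aars shares 1326 exonic bases on the same strand with Exosc6, 14.3% of its own, and Exosc6 is listed at 0 reads in all 4 libraries, so reads there cannot be told apart between them.

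A middle group followed, with log2 ratios of 0.91 in knockout and 0.79 in wild type for Tars (threonine), 0.78 and 0.77 for Gars, 0.75 and 0.73 for Lars (leucine), 0.75 and 0.72 for Wars, 0.68 and 0.72 for Iars (isoleucine), 0.69 and 0.59 for Hars (histidine), and 0.63 and 0.64 for Yars, knockout before wild type in each. Eprs, Farsa, Farsb, Kars, Qars and Dars (aspartate) rose less, from 0.27 for Dars to 0.48 for Farsa in knockout and from 0.19 for Dars to 0.47 for Farsb in wild type. Eprs, the bifunctional enzyme, had 606 and 590 CPM in LPS-treated knockout and wild-type cells, against 444 and 455 CPM in untreated knockout and wild-type cells. Mars (methionine) and Vars (valine) did not pass the test. Mars had 173 and 163 CPM in LPS-treated knockout and wild-type cells, against 182 and 184 CPM in untreated knockout and wild-type cells, with an edgeR adjusted p of 0.167. Vars had 414 and 400 CPM in LPS-treated knockout and wild-type cells, against 445 and 453 CPM in untreated knockout and wild-type cells, with an edgeR adjusted p of 0.0932. Their log2 ratios were −0.07 in knockout and −0.17 in wild type for Mars, and −0.11 in knockout and −0.18 in wild type for Vars. Mars shares 68 exonic bases on the opposite strand with Ddit3, a stress-response gene with 542 and 525 reads in LPS-treated knockout and wild-type cells, against 161 and 107 reads in untreated knockout and wild-type cells.

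Scaling by total counts lowered all LPS ratios of a genotype alike. It moved the median of all genes to −0.33 in knockout and −0.30 in wild type. The share of 2-fold calls that were higher was then 31.4% in knockout and 33.9% in wild type, against 49.0% and 52.6% with TMM. Under it 12 cytosolic genes rose, Mars and Vars fell (−0.43 and −0.45), Dars stood at −0.08 (edgeR adjusted p = 0.324) and 14 mitochondrial genes fell. The shares of all genes that rose or fell in that fit are not given here, so these counts cannot be set against a background. The gap between the sets, and every ratio of a cytosolic to a mitochondrial gene, is the same under any scaling of the libraries.

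The size of the LPS ratio varied within the cytosolic set. The 12 genes listed as known targets of the amino acid response (Aars, Cars, Eprs, Gars, Iars, Lars, Mars, Nars, Sars, Tars, Wars and Yars) had a median log2 LPS ratio of 0.77 in knockout and 0.75 in wild type. Of these, 10 of 12 were at least 1.5-fold higher in both genotypes. The share of all genes by that rule was 15.9%, which stands beside each such count below. The other 8 had medians of 0.42 in knockout and 0.39 in wild type, and 2 of 8 (Hars and Rars) reached 1.5-fold in both. The 8 enzymes of the multisynthetase complex, a cytosolic assembly of synthetases on scaffold proteins (Dars, Eprs, Iars, Kars, Lars, Mars, Qars and Rars), had medians of 0.44 in knockout and 0.39 in wild type, with 3 of 8 at 1.5-fold in both. The 12 outside it had medians of 0.77 in knockout and 0.75 in wild type, with 9 of 12. Of the scaffold proteins themselves, Eef1e1 rose (log2 ratio 0.80 in knockout and 0.76 in wild type), while Aimp1 stood at 0.21 in knockout and 0.06 in wild type and Aimp2 at 0.39 in knockout and 0.08 in wild type without passing the test. Both splits overlap in their members, and no difference between subsets was tested.

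Wars (ENSMUSG00000021266, chromosome 12 from 108860030 to 108894174, minus strand) had 263 and 239 CPM in LPS-treated knockout and wild-type cells, against 157 and 145 CPM in untreated knockout and wild-type cells. Its log2 ratio was 0.75 in knockout (0.68 to 0.82) and 0.72 in wild type (0.65 to 0.80), which places it in the middle of the cytosolic set and close to its median. The 30 genes of the interferon response list all rose, where 30.2% of all genes did, with a median log2 ratio of 5.84 in knockout and 6.08 in wild type. Mx1, Ifit3, Gbp2 and Rsad2 had the largest mean ratios as computed, on 1 to 25 untreated reads each, and Iigp1, with 0 untreated reads, has only a lower bound, so the order at the top is not settled by these counts. The lowest was Psmb8, an immunoproteasome subunit, at 1.40 in knockout and 1.55 in wild type, so Wars lay below all 30. Wars2, its mitochondrial counterpart (ENSMUSG00000004233, chromosome 3 from 99141068 to 99239186, plus strand), had 23.9 and 25.0 CPM in LPS-treated knockout and wild-type cells, against 22.7 and 27.5 CPM in untreated knockout and wild-type cells, and did not pass the test.

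Among the 16 mitochondrial genes Vars2 and Mars2 fell most. Vars2 (valine; ENSMUSG00000038838, chromosome 17 from 35655634 to 35667592, minus strand) had 14.1 and 17.0 CPM in LPS-treated knockout and wild-type cells, against 33.5 and 37.6 CPM in untreated knockout and wild-type cells, a log2 ratio of −1.25 in knockout and −1.15 in wild type. Mars2 (methionine; ENSMUSG00000046994, chromosome 1 from 55237177 to 55248470, plus strand) had 21.4 and 20.1 CPM in LPS-treated knockout and wild-type cells, against 44.5 and 41.1 CPM in untreated knockout and wild-type cells, a log2 ratio of −1.05 in knockout and −1.03 in wild type. For both genes the LPS-treated libraries lay below the untreated ones, on 227 to 345 reads in each LPS-treated library. The counting intervals were −1.47 to −1.03 in knockout and −1.36 to −0.94 in wild type for Vars2, and −1.24 to −0.87 in knockout and −1.23 to −0.84 in wild type for Mars2.

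The other mitochondrial genes that fell did so by less. The log2 ratios were −0.69 in knockout and −0.95 in wild type for Pars2 (proline), −0.69 and −0.80 for Cars2, −0.65 and −0.63 for Hars2, −0.54 and −0.50 for Aars2, −0.34 and −0.44 for Sars2, −0.27 and −0.53 for Tars2 and −0.29 and −0.15 for Iars2, knockout before wild type in each. Pars2 rests on few reads, 121 and 91 in LPS-treated knockout and wild-type cells, against 234 and 218 in untreated knockout and wild-type cells. Hars2 lies head to head with Hars on chromosome 18, where Hars ends at 36783205 and Hars2 begins at 36783008, and these neighbours moved in opposite directions in both genotypes. They share 195 exonic bases on opposite strands, and the strand setting of the counting was not stated. For Iars2, 2034 exonic bases (22.9%) are shared with Rab3gap2 on the opposite strand. Iars2 also lost its call with no filter on low counts and, like Sars2 and Dars, with DESeq2's Wald test.

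The other 7 mitochondrial genes, Ears2 (glutamate), Fars2 (phenylalanine), Lars2, Nars2, Rars2, Wars2 and Yars2, did not pass the test. Fars2 had the highest ratio of the mitochondrial set, at 0.22 in knockout (−0.03 to 0.48) and 0.43 in wild type (0.19 to 0.66), on 252 and 313 reads in LPS-treated knockout and wild-type cells, against 260 and 288 reads in untreated knockout and wild-type cells. Rars2 stood at 0.02 in knockout and 0.20 in wild type. Ears2 stood at −0.06 in knockout (−0.32 to 0.20) and −0.62 in wild type (−0.89 to −0.36). Nars2 stood at −0.16 in knockout and −0.27 in wild type, and Yars2 at −0.12 in knockout and −0.25 in wild type. With either untreated library left out, a model with LPS alone called fewer mitochondrial genes lower than the additive model did. The share of all genes called in those fits is not given here.

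Set against its counterpart for the same amino acid in the same library, the cytosolic gene gained on the mitochondrial one in most of 17 pairs. The log2 change of the ratio with LPS was above 0 in 17 of 17 pairs in knockout and 16 of 17 in wild type, with the counting interval above 0 in 15 pairs in each, and its median was 1.07 in knockout and 0.97 in wild type. Eprs enters 2 pairs, with Ears2 and Pars2, and Fars2 enters 2, with Farsa and Farsb. Per kb, Cars stood at 12.0 and 11.2 times Cars2 in LPS-treated knockout and wild-type cells, against 3.54 and 3.25 times in untreated knockout and wild-type cells. This was the pair with the largest change in wild type, 1.79 (1.57 to 2.01). Sars over Sars2 changed most in knockout, by 1.77 (1.55 to 1.99), and there the rise of Sars gave most of it. Nars stood at 131 and 135 times Nars2 in LPS-treated knockout and wild-type cells, against 45.6 and 44.7 times in untreated knockout and wild-type cells, the widest gap of any pair.

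Mars over Mars2 and Vars over Vars2 also gained, by 0.98 and 1.14 in knockout and by 0.86 and 0.97 in wild type, although neither cytosolic gene rose. Wars over Wars2 gained 0.68 in knockout and 0.86 in wild type. The phenylalanine pairs were the exception. Farsa over Fars2 changed by 0.26 in knockout (−0.01 to 0.52) and −0.04 in wild type (−0.29 to 0.20), and Farsb over Fars2 by 0.07 in knockout and 0.05 in wild type (−0.20 to 0.29), with every interval spanning 0.

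**Figure D3:**
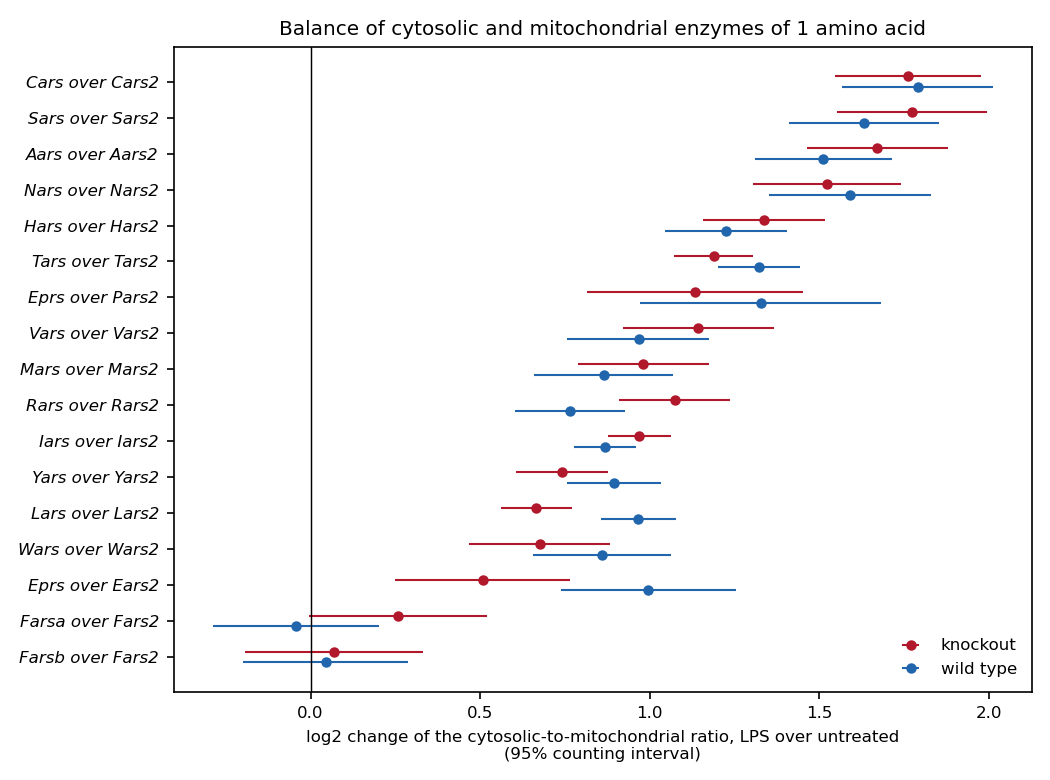
Log2 change with LPS of the ratio of the cytosolic to the mitochondrial gene of 1 amino acid, in knockout and in wild type, with 95% counting intervals. All pairs lie above 0 except Farsa over Fars2 in wild type, and the intervals of both phenylalanine pairs span 0.

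Genes that are functionally tied to the synthetases were set beside them. The shares of all genes in the same fit were 30.2% that rose and 30.1% that fell. Of 29 measured genes of the ATF4 and amino acid response list, which holds no synthetase, 26 rose, Phgdh and Pycr1 fell and Shmt2 did not pass the test, with a median log2 ratio of 1.28 in knockout and 1.19 in wild type. The largest ratios were those of Slc7a11, the cystine transporter subunit (3.51 in knockout and 4.24 in wild type), the stress transcription factor gene Atf3 (3.73 and 3.39), the pseudokinase gene Trib3 (3.62 and 3.47) and Chac1, which encodes a glutathione-degrading enzyme (3.39 and 3.28). Atf4 itself had 870 and 729 CPM in LPS-treated knockout and wild-type cells, against 302 and 292 CPM in untreated knockout and wild-type cells, a log2 ratio of 1.53 in knockout and 1.32 in wild type. For Asns, which makes the asparagine that Nars charges, the log2 ratio was 1.53 in knockout and 1.35 in wild type. Of 8 measured eIF2 kinase and regulator genes, 3 rose, a share near that of all genes, and 1 fell. These were Eif2ak2, the interferon-inducible double-stranded RNA kinase (2.26 in knockout and 2.68 in wild type), the phosphatase subunit genes Ppp1r15a (2.72 and 2.24) and Ppp1r15b (0.38 and 0.45), and Eif2ak4, the sensor of uncharged tRNA (−0.31 in both).

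Lists of other charging, elongation and mitochondrial translation genes held no gene called 2-fold higher in both genotypes, where 9.66% of all genes were. Tarsl2 and Aarsd1 were called 2-fold lower in both, where 8.55% of all genes were. By the additive model, the counts in these lists stand beside 30.2% of all genes that rose and 30.1% that fell. Of 14 synthetase-like and charging accessory genes, 0 rose and 8 fell, led by Tarsl2, a threonyl-tRNA synthetase-like gene (−2.54 in knockout and −1.90 in wild type), Aarsd1 (−1.77 and −1.41), the selenocysteine pathway kinase gene Pstk (−0.55 and −0.63) and the peptidyl-tRNA hydrolase gene Ptrh2 (−0.54 and −0.64). Tarsl2 had 1.74 and 2.41 CPM in LPS-treated knockout and wild-type cells, against 10.1 and 9.00 CPM in untreated knockout and wild-type cells, far below Tars in each. Aarsd1 rests on few reads, 11 and 18 in LPS-treated knockout and wild-type cells, against 45 and 59 in untreated knockout and wild-type cells. Of 10 cytosolic elongation and release factors, 6 rose and Eef2k, the kinase that inhibits Eef2, fell. Eef2 stood at 0.51 in knockout and 0.44 in wild type, Etf1 at 0.41 and 0.36, Eef1a1 at 0.32 and 0.30 and Eef2k at −0.54 and −0.34. Of 10 mitochondrial translation factors, 0 rose and 3 fell, a share of falls near that of all genes, namely Guf1 (−0.97 in knockout and −0.88 in wild type), Mtif2 (−0.71 and −0.61) and Tsfm (−0.21 and −0.25), while Mtrf1l (−0.13 and −0.63) did not pass the test.

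**Figure D4:**
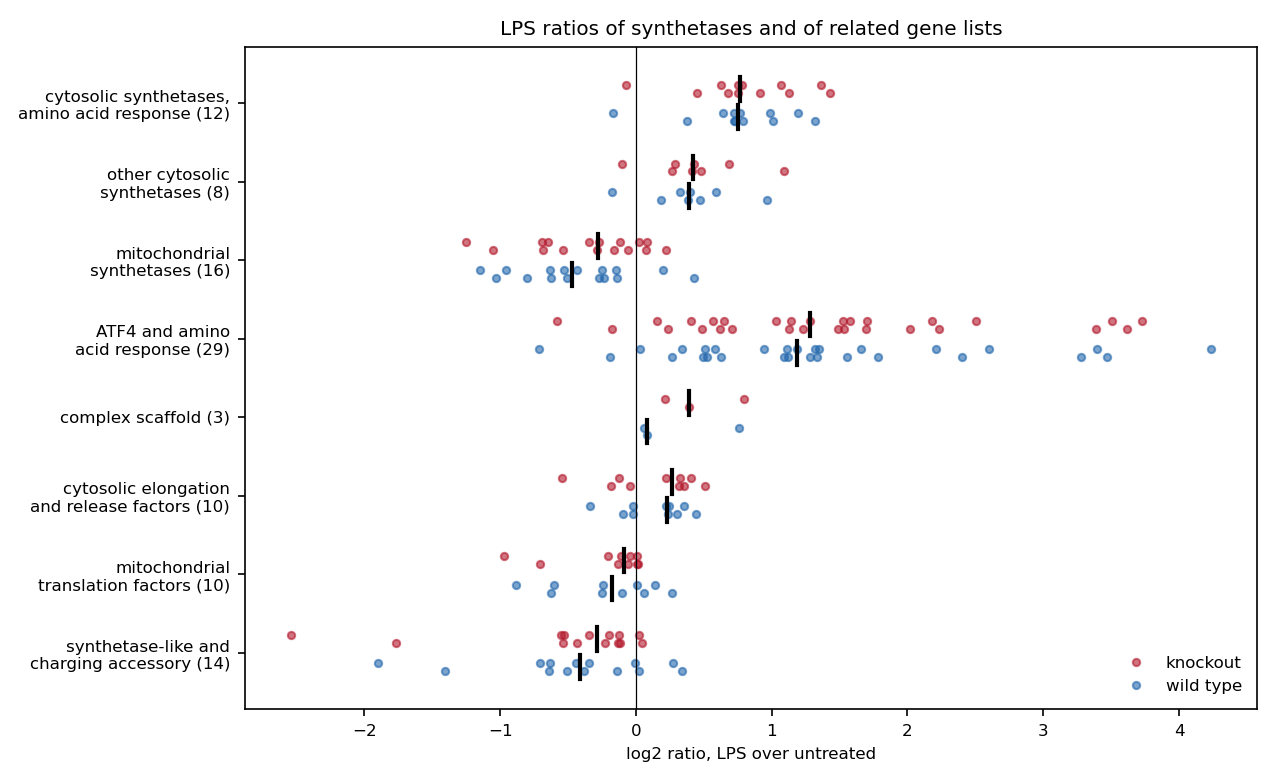
Log2 ratio of LPS-treated over untreated cells for the members of each gene set, in knockout and in wild type; each point is 1 gene, the bar marks the median, and the number of measured genes is in brackets. The medians of both cytosolic synthetase subsets lie below those of the ATF4 list (1.28 in knockout and 1.19 in wild type) and above 0, and the mitochondrial synthetase medians lie below 0.

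No synthetase gene differed by 1.5-fold or more between knockout and wild type. Of 36, 0 were called under LPS, where 1.66% of all genes were 2-fold higher and 1.83% lower (3.98% and 4.5% at 1.5-fold). In untreated cells 0 were called, where 1.15% of all genes were 2-fold higher and 0.859% lower (2.71% and 2.17% at 1.5-fold). The additive edgeR model called 0 of 36 for genotype, where 0.988% of all genes were higher in knockout and 0.928% lower; the lowest adjusted p was 0.243, 2 genes had an unadjusted p under 0.05, and DESeq2 gave 0 both before and after adjustment. Median log2 ratios of knockout over wild type were 0.06 for cytosolic and 0.008 for mitochondrial genes under LPS, and 0.05 and −0.10 in untreated cells. Counting intervals were narrow enough to lie off 0 for many cytosolic genes: 11 of 20 above and 0 below under LPS (20.1% of all genes above and 20.1% below), and 8 above and 2 below in untreated cells (15.8% above and 15.2% below). Of the 16 mitochondrial genes 3 lay above and 4 below under LPS, and 0 above and 5 below in untreated cells. These intervals hold no spread between cultures. Under LPS the cytosolic genes with the largest ratios were Sars (0.31, 0.27 to 0.35), Rars (0.22), Nars (0.21) and Tars (0.19), and in untreated cells Nars (0.17), Farsb (0.15), Farsa (−0.14) and Gars (0.12). Among mitochondrial genes they were Fars2 (−0.38, −0.63 to −0.14), Pars2 (0.34, −0.06 to 0.75), Vars2 (−0.27) and Nars2 (0.25) under LPS, and Ears2 (−0.39, −0.62 to −0.15), Wars2 (−0.28, −0.46 to −0.09), Fars2 (−0.18) and Vars2 (−0.17) in untreated cells.

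**Figure D5:**
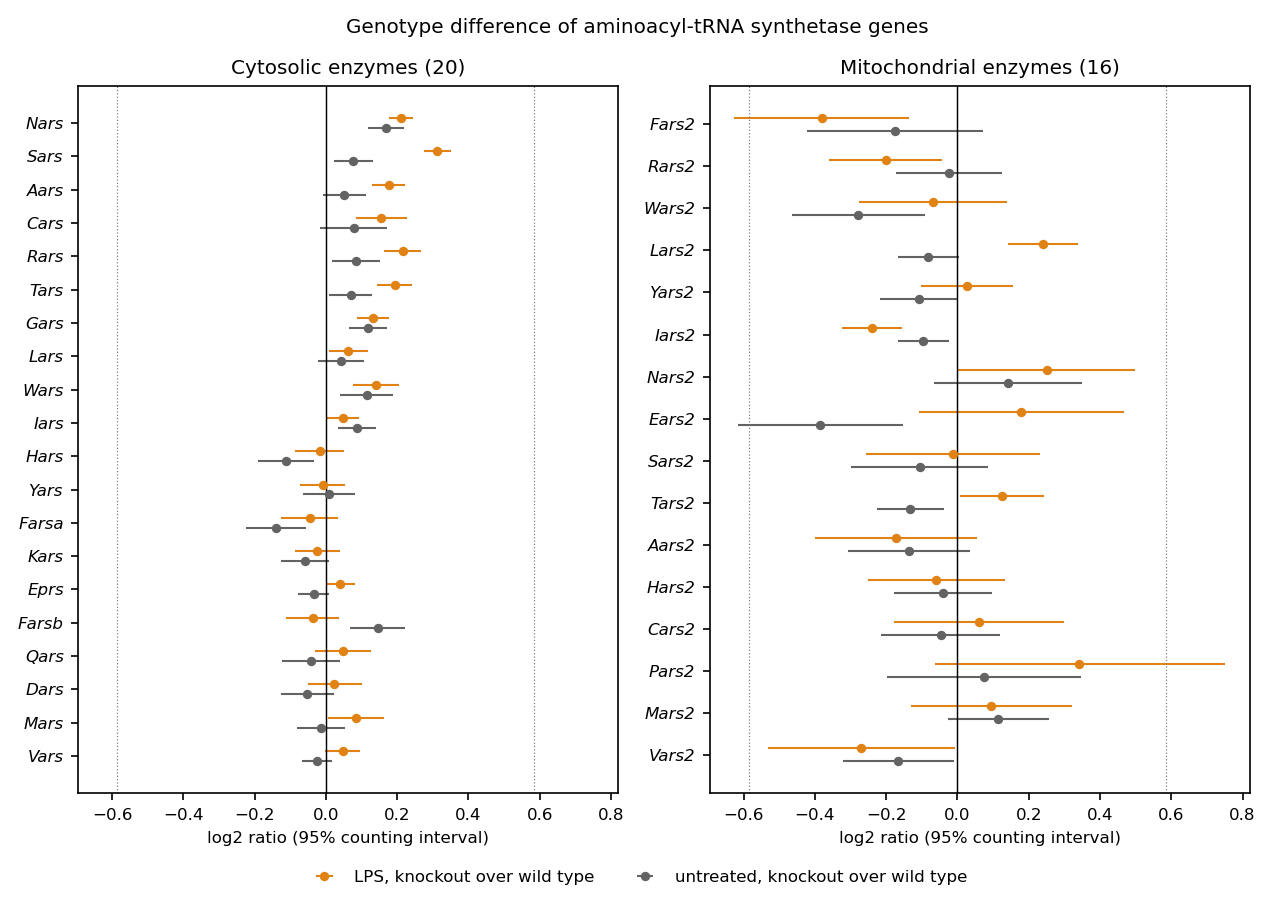
Log2 ratio of knockout over wild type for the synthetase genes, under LPS and in untreated cells, with exact 95% counting intervals of 1 library over 1 library; dotted lines mark 1.5-fold. All 36 points lie within the dotted lines in both conditions.

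No synthetase gene had an LPS response that differed by 1.5-fold or more between genotypes. Subtracting the wild-type LPS log2 ratio from the knockout one gave values that ran from −0.21 to 0.56 with a median of 0.08, and 0 of 36 genes reached 2-fold, where 1.19% of all genes were higher and 1.84% lower (2.64% and 3.86% at 1.5-fold). Ears2 had the largest value, 0.56 (0.20 to 0.92): it had 222 and 187 reads in LPS-treated knockout and wild-type cells, against 278 and 356 reads in untreated knockout and wild-type cells. Lars2 followed with 0.32 (0.19 to 0.45), Pars2 with 0.27 (−0.21 to 0.74) and Tars2 with 0.26 (0.11 to 0.41), while among the cytosolic genes Sars had 0.24 (0.17 to 0.30), Farsb −0.18 (−0.29 to −0.08), Rars 0.13 and Aars 0.12. The counting interval lay off 0, on either side, for 11 of 36 genes. This share was near that of all genes, of which 13.9% lay above and 15.7% below. These differences use the same 4 libraries as the ratios above and were not tested with replicates.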

How the data were processed

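The deposited tables gave, per gene, a read count and an FPKM value. Per the submitters' processing notes, CASAVA 1.8, HISAT2 2.0.5 and featureCounts 1.5.0-p3 were used with GRCm38 and mm10; no source names a strand setting. The deposited counts were whole and not normalized. The deposited FPKM equal the count over gene length and a constant per library, 0.927 and 0.932 times the total count in the LPS-treated knockout and wild type, 1.161 and 1.148 times it in the untreated ones, and were used only as an alternative.

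From the counts, TMM factors (edgeR 4.0.16, R 4.3.3) were computed over the 11640 genes whose CPM averaged 1 or more. They were 0.899 and 0.901 in the LPS-treated knockout and wild type, 1.12 and 1.11 in the untreated ones. Ratios of 1 library over 1 library carry exact conditional (Clopper-Pearson) 95% intervals. These cover counting error only, since each group holds 1 library. Reads carried no molecular identifiers and can be copies, which the intervals do not take into account. A count of 0 entered as 3. The interaction has a delta-method interval. The additive edgeR quasi-likelihood model takes its spread from what the genotype and LPS terms leave in the 4 libraries. That is 1 residual degree of freedom per gene, which holds any difference in LPS response between genotypes, and the spread is shared across genes. The words "rose" and "fell" follow its Benjamini-Hochberg adjusted p under 0.05. A DESeq2 1.42.0 Wald test of the same model was an alternative. The labels do not say whether libraries came from separate cultures, so p-values rest only on this shared spread between these libraries, which may be technical. They do not rest on a spread between replicates of each gene.

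The members and lists were chosen with earlier results of these data known. A gene that the naming rule also finds is not reported here and enters no count of members. In full were described the 4 members with the largest ratio per compartment and comparison, Wars and Wars2, the pairs of 1 amino acid, the 4 genes with the largest mean LPS ratio per list, and Hnrnpul1. Other genes in the text were named after their values were seen.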

Additional observations from a re-analysis of the deposited data

Results flagged for a closer look

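Lars2 and Wars2 had LPS ratios of opposite sign in the genotypes. For Lars2, which charges leucine in mitochondria, the log2 ratio of LPS-treated over untreated cells was 0.09 in knockout (−0.004 to 0.18) and −0.24 in wild type (−0.33 to −0.14), a difference of 0.32. The reads were 1913 and 1545 in LPS-treated knockout and wild-type cells, against 2169 and 2251 in untreated knockout and wild-type cells. Scaled with TMM factors, the level was 118.8 and 100.6 CPM in LPS-treated knockout and wild-type cells. It was 112.0 and 118.5 CPM in untreated knockout and wild-type cells, so by TMM scaling LPS-treated wild type stood lowest. For Wars2 the log2 ratio was 0.07 in knockout (−0.13 to 0.27) and −0.14 in wild type (−0.33 to 0.06), a difference of 0.21 with both intervals spanning 0. The reads of Wars2 were 384 in LPS-treated knockout and 384 in LPS-treated wild-type cells, against 439 and 522 in untreated knockout and wild-type cells. Neither difference was tested, since each group holds 1 library, and under total-count scaling both genes had LPS ratios below 0 in both genotypes.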

How the results depend on the processing

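Total-count scaling moved the most results. In the LPS comparison it gave a cytosolic median log2 ratio of 0.37 in knockout and 0.385 in wild type. The mitochondrial median was −0.59 in knockout and −0.77 in wild type. It called 2 cytosolic genes higher in knockout and 1 in wild type, and 4 mitochondrial genes lower in wild type. Of all 11640 genes tested, the same scaling called 989 higher in knockout and 975 higher and 1904 lower in wild type. In the additive edgeR model it gave 2 cytosolic and 14 mitochondrial genes lower, without a share of all genes to set beside them, and Dars turned to −0.078. A 1.5-fold rule called 12 cytosolic genes higher in each genotype (19.3% of all genes in knockout and 18.9% in wild type). It called 5 mitochondrial genes lower in knockout (21.0% of all genes) and 6 in wild type (19.2%). The whole interval beyond 2-fold left 1 mitochondrial gene lower in knockout and 0 in wild type. The deposited FPKM left 0 in each genotype with a pseudocount of 1, and 1 in wild type with a pseudocount of 0.1. The shares of all genes under the whole-interval rule and with the FPKM values are not given here. The cause was not tested, beyond what the construction of each setting gives.

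Leaving out 1 library in turn, in an edgeR model with LPS alone that was added after seeing the data, gave 15 to 18 cytosolic genes higher, 4 to 8 mitochondrial genes lower and 0 to 1 higher (Fars2 without LPS-treated knockout, 0.51). This fit takes genotype to have no effect, and where 1 arm holds 1 library that library is assumed to vary like the others. With a genotype term it could not be fitted. The shares of all genes called higher or lower in these fits are not given here. The counts above therefore cannot be set against a background. With DESeq2's Wald test Dars (adjusted p = 0.126), Iars2 and Sars2 lost their calls. DESeq2 size factors, protein-coding genes alone, no filter, a minimum mean of 10 CPM and FPKM with a pseudocount of 0.1 moved the medians little. No shift reached the median half-width of the counting intervals of the single genes in the set. That half-width describes 1 gene and is not the counting error of a median. No paired analysis was possible because each group holds 1 library and the labels carry no replicate numbers. Depth limits Pars2 most, which had the widest counting interval of the 36 genes in each of the 4 ratios of libraries.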

Other observations

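The order of the synthetase genes by level per kb shifted with LPS within a stable frame: Nars and Gars ranked 1 and 2 of the 36 in all 4 libraries. Vars ranked 10 in LPS-treated knockout and 9 in LPS-treated wild-type cells, against 3 in both untreated libraries. Mars ranked 14 in both LPS-treated libraries, against 10 and 7 in the untreated knockout and wild type. Sars ranked 3 in both LPS-treated libraries, against 8 in both untreated ones, and Cars 19, against 22 and 23 in the untreated knockout and wild type. These ranks use the deposited gene lengths, and no test was made of them.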
